A study of Mus musculus with 4 samples.

Results

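Aminoacyl-tRNA synthetases are the enzymes that join each amino acid to its transfer RNA, the step at which the genetic code is read into protein chemistry. Mammalian cells keep separate sets for the cytosol and for the mitochondrial matrix, both encoded in the nucleus, and most amino acids therefore have a pair of genes, with the mitochondrial enzyme named by a final 2. Many cytosolic synthetases sit in a multisynthetase complex held together by scaffold proteins, and several cytosolic synthetase genes are known targets of ATF4, the transcription factor that follows phosphorylation of eIF2 under amino acid shortage and other stress. The genes described here were the protein-coding rows of the deposited table whose symbols follow the synthetase naming pattern, a 1-letter amino acid code before "ars" with or without a final 2, together with Farsa, Farsb, Fars2, Eprs and Tarsl2. The rule found 38 genes of 51826, lying on 15 chromosomes, of which 20 were cytosolic and 17 mitochondrial. Tarsl2 ends in 2 but encodes a second cytosolic-type threonyl enzyme, so it was kept apart from both sets. Gars and Kars each encode both the cytosolic and the mitochondrial enzyme and were counted as cytosolic.

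RNA sequencing of polyadenylated RNA was done on mouse embryonic stem cells, C57BL/6 by strain background, taken to day 3 of differentiation into what the labels call mesoderm-like cells. The question the series addresses is what loss of Stk40, which encodes a pseudokinase, does to this differentiation. There were 2 groups of 2 libraries, 1 from wild-type cells and 1 from Stk40-/- cells, and no other allele is named for either. Cells of both genotypes had been kept on mouse embryonic fibroblast feeders with 2i and LIF and passaged once on gelatin to remove the feeders. They then received BMP4 at 10 ng/ml for 2 days, followed by CHIR99021, which inhibits GSK3, at 1 uM in medium with 0.5% DMSO until they were collected. The labels do not say whether the 2 libraries of a genotype were separate cultures, so the p-values reflect spread between libraries that may be purely technical. A genotype may also be represented by a single line, and line and genotype cannot be told apart.

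Values are TPM, a transcript abundance scaled by length and by library total, so levels can be compared between genes. Sequencing depth is unknown from such values, so no counting interval is given. Stk40 itself was at 28.9 and 39.9 TPM in wild type against 3.54 and 3.17 TPM in Stk40-/-, which fits the labels. Mitochondrially encoded RNA made up 8.62% to 10.1% of TPM and ribosomal protein RNA 15.0% to 16.1%. Of the mesoderm markers behind the label, the early marker T was abundant in every library, while Mesp1 was at 0 in 3 of 4 libraries, Gsc was at 0 in 2, and Kdr did not pass 0.211 TPM. The summed level of the 12 primitive streak and mesoderm markers was 1270 and 652 TPM in wild type against 426 and 275 TPM in Stk40-/-. For 12 feeder fibroblast markers the sums were 424 and 406 against 296 and 305 TPM, for 8 neuroectoderm markers 101 and 121 against 162 and 209 TPM, and for 8 pluripotency markers 813 and 989 against 787 and 847 TPM. T, at 1025 and 535 against 355 and 217 TPM, made up most of the mesoderm sum in every library. Eomes, of the same list, overlapped at 3.91 and 2.37 against 2.82 and 2.51 TPM. The largest single gene was Tagln in the feeder list (385 and 359 against 268 and 282 TPM). It was Pou5f1 in the pluripotency list (370 and 473 against 372 and 465 TPM). Within the pluripotency list, Dppa5a was at 290 and 326 against 150 and 160 TPM, and Nanog at 113 and 132 against 219 and 166 TPM. For 6 definitive endoderm markers the sums were 10.5 and 10.5 against 6.87 and 6.80 TPM. Hhex, the largest of them, was at 6.32 and 5.68 against 3.58 and 4.42 TPM. No marker of these lists was at 0 in all 4 libraries. The fibroblast marker Fap was at 0 in both Stk40-/- libraries, but at only 0.504 and 0.909 TPM in wild type, too low for testing. Of 8 feeder markers tested, 7 had a negative log2 fold change, against 41.4% of all tested genes. Among them Fbln2 (-0.10) and Twist2 (-0.02) hardly differed. Thy1 went the other way, at 7.28 and 9.42 against 13.1 and 9.17 TPM. The part of these marker differences in the values below was not tested, and in bulk RNA fewer cells of a type and less RNA per cell cannot be told apart.

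Promoter sequence was examined for the element through which ATF4 acts on genes of amino acid metabolism. ATF4 binds a composite element whose core was searched here as TGATGNAA on both strands, in RefSeq promoters of the GRCm38.p6 build reaching from 250 bases before to 50 bases after each gene's start. Promoters were matched for 28 of the 38 genes. Those without one included Cars, Hars, Lars, Nars, Rars, Vars, Wars, Hars2 and Pars2. The core was present in 5 of 13 cytosolic promoters (38.5%), in 0 of 14 mitochondrial ones and not in that of Tarsl2, against 1219 of 27025 promoters of all genes (4.51%). The 6 matching stretches are shown because all of them lie in cytosolic genes. They are written in the direction of the gene, with the 8 bases of the core, or of its reverse complement, in capitals:
Aars, chr8:111033706-111033761, plus strand, core 112 to 105 bases before the start: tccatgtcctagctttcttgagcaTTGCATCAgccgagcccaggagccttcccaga
Aars, chr8:111033840-111033869, plus strand, core at bases 10 to 17 of the transcript: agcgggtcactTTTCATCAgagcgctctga
Gars, chr6:55037947-55038000, plus strand, core 30 to 23 bases before the start: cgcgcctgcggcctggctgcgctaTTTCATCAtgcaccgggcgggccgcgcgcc
Tars, chr15:11399659-11399697, minus strand, core 15 to 8 bases before the start: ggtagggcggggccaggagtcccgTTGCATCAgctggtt
Iars, chr13:49682126-49682155, plus strand, core at bases 8 to 15 of the transcript: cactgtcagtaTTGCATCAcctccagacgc
Yars, chr4:129189895-129189924, plus strand, core at bases 4 to 11 of the transcript: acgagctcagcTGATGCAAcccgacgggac

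A match of this kind describes the letters in the window and is neither a measured binding site nor a cause of any value below. Among 28 genes with a promoter from a list of known ATF4 targets that holds no synthetase, the core was present for 9 (32.1%). An E-box, CACGTG, which reads the same on both strands, was present for 4 of 13 cytosolic and 1 of 14 mitochondrial genes, against 8.09% of all genes with a promoter. The core of the NRF1 element, searched on both strands, was present for 3 of 13 cytosolic and 2 of 14 mitochondrial genes, against 5.19%. NRF1 is a regulator of nuclear genes for mitochondrial function.

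Cytosolic synthetase RNAs were abundant and close to each other in level, and mitochondrial ones were lower and more spread. Mean levels over the 4 libraries ran from 58.4 TPM for Wars to 256 TPM for Kars among the 20 cytosolic genes, with a median of 112 TPM. Among the 17 mitochondrial genes they ran from 3.26 TPM for Mars2 to 126 TPM for Lars2, with a median of 25.7 TPM. Kars, which supplies the lysyl enzyme to both compartments, was at 250 and 248 TPM in wild type against 269 and 257 TPM in Stk40-/-. Gars, the glycyl enzyme of both compartments, held the next highest level. Together the 38 genes made up 0.314% to 0.331% of TPM in the 4 libraries.

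**Figure D1:**
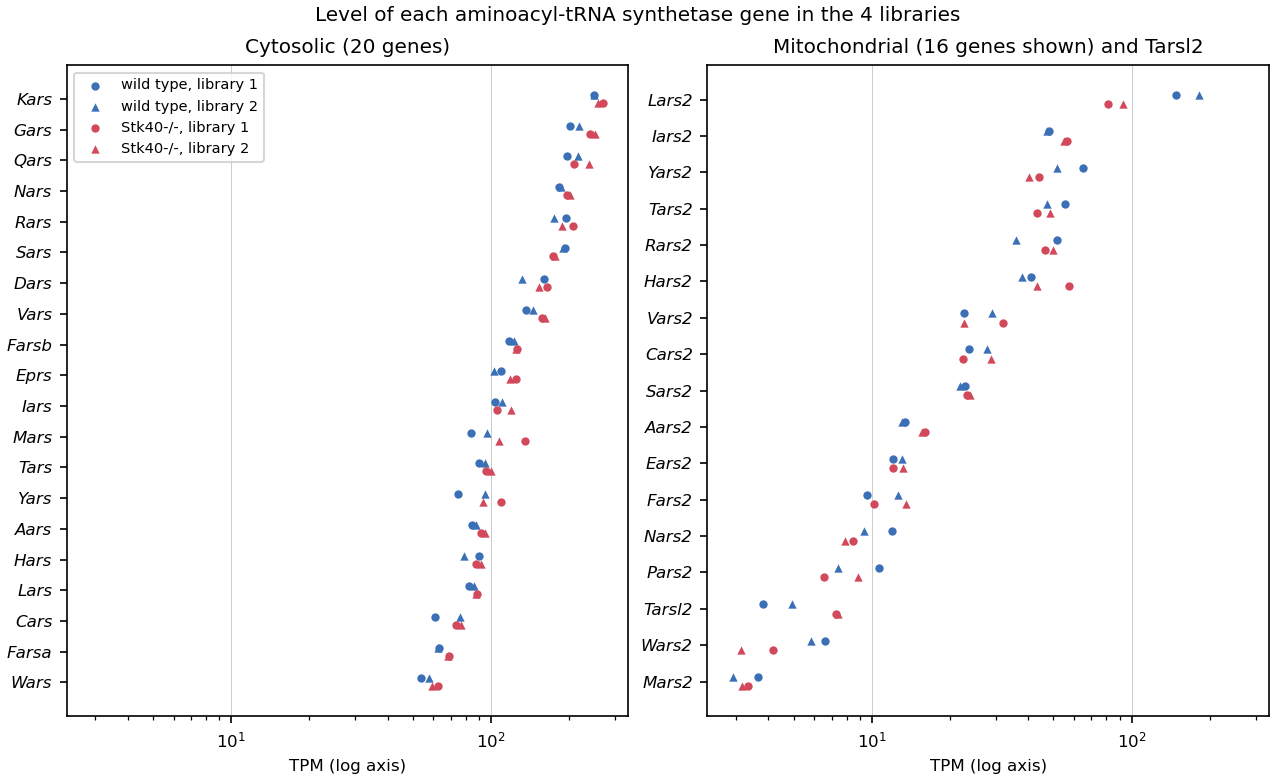
Level of each synthetase gene in TPM on a log axis, with 1 point per library: blue for wild type, red for Stk40-/-, circles for library 1 and triangles for library 2. Cytosolic genes lie between 53.9 TPM (Wars) and 269 TPM (Kars), and in the right panel Lars2 is the only mitochondrial gene whose wild-type points pass 100 TPM, with its Stk40-/- points well to the left of them.

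No synthetase gene passed the test of Stk40-/- against wild type, which was limma on log2(TPM + 1) with a threshold of 0.05 on the adjusted p. Calls numbered 0 of 38 among the synthetases and 0 of 15739 (0%) among all tested genes, in either direction. Stk40 itself was not called either, at a log2 fold change of -3.01 (SE 0.21, adjusted p = 0.139 by limma). The absence of calls therefore does not show that the synthetases were unchanged. At an unadjusted p under 0.05 there were 6 of 38, namely Lars2, Yars2, Tarsl2, Gars, Mars and Wars2, against 11% of all tested genes. An exact permutation test of 2 against 2 libraries cannot go below 0.33. The patterns below are therefore values with their spread, and the count used is how many genes had both Stk40-/- libraries above, or both below, the 2 wild-type libraries.

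The groups did not overlap for 22 of the 38 genes, 17 higher and 5 lower in Stk40-/-, against 44% of all tested genes, 27.5% higher and 16.6% lower. Within the cytosolic set 12 of 20 were higher and 1 was lower. Within the mitochondrial set 4 of 17 were higher and 4 were lower. Tarsl2 was higher. These counts depend on how libraries are scaled to each other: with log2 values centred on each library's median, the cytosolic split was 4 higher and 1 lower, the mitochondrial split 3 higher and 5 lower, and the background 20.1% higher and 23.9% lower. Centring left Mars, Gars, Eprs and Farsa as the cytosolic genes higher without overlap, and Sars as the lower one.

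In sign alone, 19 of 20 cytosolic genes had a positive log2 fold change, or 18 of 20 after centring, when Farsb moved to -0.000815. Of all tested genes 58.6% were positive and 41.4% negative, or 49.8% positive after centring. The cytosolic median was 0.11, a small difference that stood beside 0.065 for all tested genes and 0.055 for the 3114 protein-coding genes averaging 50 TPM or more. After centring the cytosolic median was 0.047. Of the mitochondrial genes 9 of 17 were positive, or 8 of 17 after centring, and their median was 0.00095, or -0.065 after centring. The cytosolic genes stayed within -0.13 to 0.42, while the mitochondrial genes spread from -0.91 to 0.33.

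**Figure D2:**
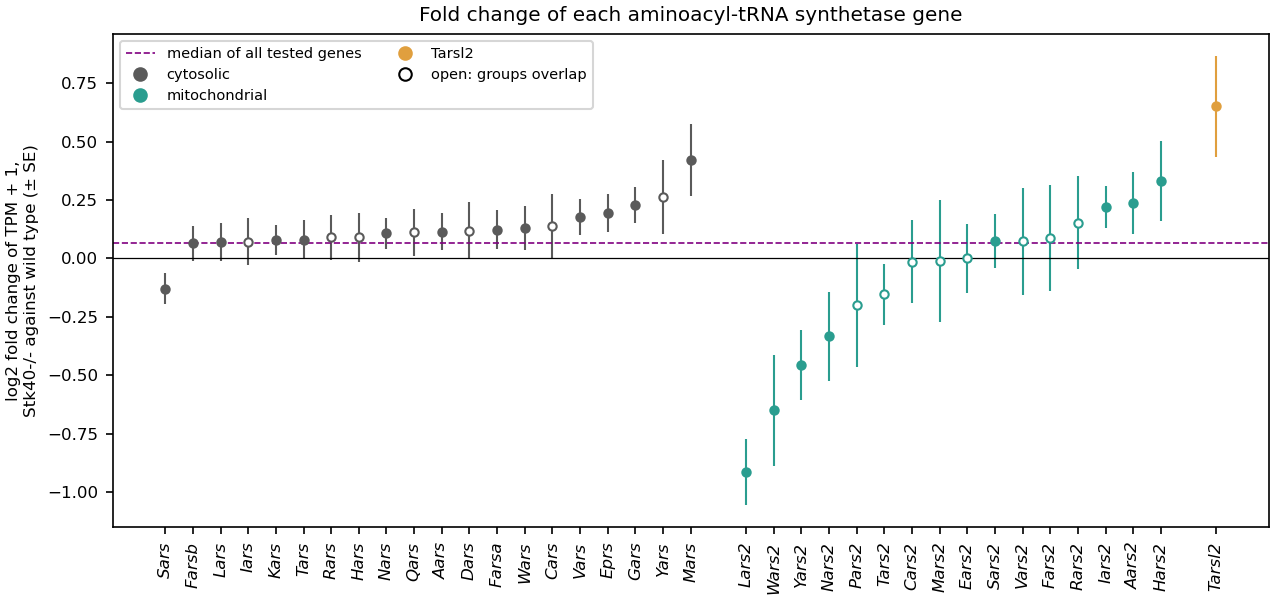
Difference in log2(TPM + 1) between Stk40-/- and wild type for each gene, with its standard error as the bar, in order within the cytosolic (grey) and mitochondrial (green) sets and with Tarsl2 in orange. Filled points mark genes whose groups do not overlap, and the dashed line is the median of all tested genes at 0.065. Of the cytosolic points Sars alone lies below 0 on this scale (Farsb joins it after centring), while Lars2, Wars2, Yars2 and Nars2 form the lower end of the mitochondrial set.

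Summed levels give weight to the abundant genes. The 20 cytosolic genes summed to 2527 and 2580 TPM in wild type and to 2783 and 2766 TPM in Stk40-/-. The mitochondrial genes summed to 604 and 592 TPM in wild type and to 523 and 535 TPM in Stk40-/-. Neither sum overlapped between genotypes, and the cytosolic sum was 4.18 and 4.36 times the mitochondrial one in wild type against 5.32 and 5.17 times in Stk40-/-. The sums are of TPM without centring, and whether they stay separate after it was not examined. In the ratio of the sums the scaling of a library cancels out. No sums of other gene sets stand beside either. The mitochondrial difference rested on Lars2: without it the sums were 456 and 409 TPM in wild type against 442 and 442 TPM in Stk40-/-, and the groups overlapped. The ratio of sums without Lars2 was 5.55 and 6.30 against 6.30 and 6.26, so the first wild-type library stood apart and the other 3 lay close together.

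Lars2 charges the mitochondrial leucine tRNAs, and it was the most abundant mitochondrial synthetase gene and the one that differed most. Its gene (ENSMUSG00000035202.8) lies on the plus strand at chr9:123366927-123462666 in GRCm38. It was at 149 and 182 TPM in wild type against 81.1 and 93.0 TPM in Stk40-/-, or 165 ± 23.7 against 87.1 ± 8.42 TPM (SD, n = 2 each). The lower wild-type value was well above the higher Stk40-/- value, and the ratio of the Stk40-/- mean to the wild-type mean was 0.526. The log2 fold change was -0.91 (SE 0.14) with an adjusted p of 0.265 by limma, rank 127 of 15739 by unadjusted p. Among 1953 protein-coding genes within 2-fold of its level, 12 (0.614%) had a log2 fold change as low. With each library left out in turn it stayed between -1.06 and -0.77, and after centring it was -0.98. Similar sequences were sought only among annotated transcripts, at 90% identity over at least 500 bases. Shorter or less alike stretches that Lars2 may share with other RNA were not examined.

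Among protein-coding genes averaging 5 TPM or more, those nearest to Lars2 by start position were Cdcp1 and Limd1. Genes below that level were not examined, and Cdcp1 ends at chr9:123216038, well before Lars2. Cdcp1, before it, was at 9.42 and 7.68 TPM in wild type against 13.2 and 10.0 TPM in Stk40-/-, and Limd1, after it, was at 19.1 and 18.5 against 19.2 and 18.8 TPM. Lars2 took 24.6% and 30.8% of the mitochondrial synthetase sum in wild type and 15.5% and 17.4% in Stk40-/-. Its cytosolic counterpart Lars was at 82.0 and 85.7 TPM against 88.3 and 87.9 TPM, a log2 fold change of 0.07.

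Wars2, the mitochondrial tryptophanyl enzyme, was among the lowest of the family. It (ENSMUSG00000004233.14, chr3:99141068-99239186, plus strand) was at 6.63 and 5.85 TPM in wild type against 4.15 and 3.13 TPM in Stk40-/-. The groups did not overlap, and the log2 fold change was -0.65 (SE 0.24, adjusted p = 0.451 by limma). Leaving out each library in turn moved it from -0.81 to -0.49. Of 2969 protein-coding genes near its level, 6.53% were as low, so the size is more common at this level than that of Lars2 is among genes of its own.

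Yars2, the mitochondrial tyrosyl enzyme (ENSMUSG00000022792.16, chr16:16302965-16309640, plus strand), was at 65.1 and 51.6 TPM in wild type against 43.9 and 40.2 TPM in Stk40-/-. The log2 fold change was -0.45 (SE 0.15, adjusted p = 0.438 by limma), and it ran from -0.62 to -0.29 when each library was left out, with the weakest value without the first wild-type library. Yars2 is the only synthetase gene on chromosome 16. Protein-coding genes of that chromosome averaging 5 TPM or more were lower as a whole, with a median log2 fold change of -0.19 over 328 genes and 50.3% lower without overlap, against 0.072 and 17% over all chromosomes. The part of this chromosome-wide shift in the Yars2 value was not tested. The nearest such genes on either side of Yars2 were Pkp2 (55.0 and 49.97 against 50.7 and 43.1 TPM) and Dnm1l (116 and 72.1 against 120 and 87.7 TPM). Both overlapped between genotypes.

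Nars2, the mitochondrial asparaginyl enzyme, was at 11.9 and 9.37 TPM in wild type against 8.48 and 7.91 TPM in Stk40-/-. The groups were separate but close, and the log2 fold change was -0.33 (SE 0.19, adjusted p = 0.583 by limma). It was -0.17 without the first wild-type library and -0.49 without the second.

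The mitochondrial genes on the higher side differed less. Hars2, the histidyl enzyme, was at 40.9 and 38.0 TPM in wild type against 57.5 and 43.1 TPM in Stk40-/-, a log2 fold change of 0.33 (SE 0.17, adjusted p = 0.548 by limma). Most of that came from the first Stk40-/- library, and without it the value was 0.13. Hars2 shares 198 bases with Hars, which lies head to head with it on the opposite strand, and reads there cannot be assigned if strand was not kept. Iars2, the isoleucyl enzyme, was at 48.3 and 47.1 TPM against 56.6 and 54.8 TPM (log2 fold change 0.22), and Aars2, the alanyl enzyme, at 13.5 and 13.1 against 15.98 and 15.7 TPM (0.24). Sars2, the seryl enzyme, was at 22.9 and 21.8 against 23.3 and 23.96 TPM (0.07), the smallest difference among those without overlap. After centring Sars2 overlapped, at 0.0084. Iars2 shares 2034 bases with Rab3gap2 on the opposite strand, and whether strand was kept is not stated in the labels.

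The remaining 9 mitochondrial genes overlapped between genotypes before centring. After it Tars2 was lower without overlap, at -0.22. Ears2, the glutamyl enzyme, differed least, at 12.1 and 13.1 TPM in wild type and 12.05 and 13.2 TPM in Stk40-/-. Mars2, the methionyl enzyme and the lowest of all 38, was at 3.65 and 2.92 against 3.33 and 3.16 TPM. Cars2, the cysteinyl enzyme, was at 23.7 and 27.7 against 22.4 and 28.8 TPM. Pars2, Tars2, Vars2, Fars2 and Rars2, the prolyl, threonyl, valyl, phenylalanyl and arginyl enzymes, had log2 fold changes from -0.20 (Pars2) to 0.15 (Rars2).

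**Figure D3:**
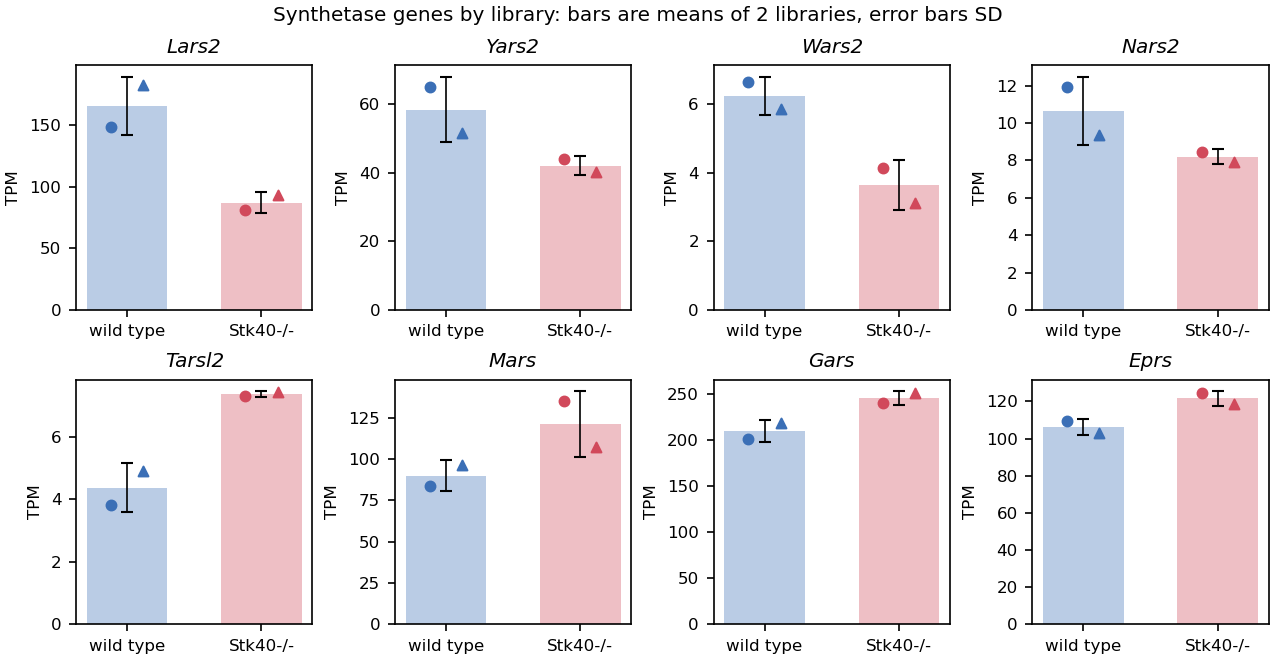
TPM of 8 synthetase genes by genotype, with bars for the mean of 2 libraries, error bars for the SD, circles for library 1 and triangles for library 2. In Lars2, Yars2, Wars2 and Nars2 both red points lie below both blue points, and in Tarsl2, Mars, Gars and Eprs both lie above. In Mars the second libraries stand at 96.4 and 107 TPM.

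Mars, the cytosolic methionyl enzyme, which charges both the initiator and the elongator methionine tRNA, had the largest cytosolic difference. The gene (ENSMUSG00000040354.14, chr10:127296221-127311786, minus strand) was at 83.4 and 96.4 TPM in wild type against 135 and 107 TPM in Stk40-/-. Its groups were separate, with the first Stk40-/- library standing apart from the second. The log2 fold change was 0.42 (SE 0.15, adjusted p = 0.449 by limma), and it was 0.25 without the first Stk40-/- library and 0.59 without the second. Mars overlaps the stress gene Ddit3 by 68 bases on the opposite strand, and Ddit3 was at 21.2 and 19.8 TPM against 20.6 and 17.4 TPM.

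Gars, whose promoter holds an ATF4 core shown above, lies at chr6:55038007-55079500 on the plus strand (ENSMUSG00000029777.10). It was at 201 and 218 TPM in wild type against 241 and 251 TPM in Stk40-/-. All 4 values were well above most of the family, and the genotypes did not overlap. The log2 fold change was 0.23 (SE 0.077, adjusted p = 0.441 by limma).

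Eprs, which charges both glutamate and proline from a single protein, was at 109 and 103 TPM in wild type against 124 and 119 TPM in Stk40-/- (log2 fold change 0.19, SE 0.081). Vars, the valyl enzyme, was at 136 and 145 TPM against 157 and 161 TPM (0.18, SE 0.076). Adjusted p was 0.490 for Eprs and 0.494 for Vars by limma. Vars overlapped between genotypes once values were centred, and Eprs did not.

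Sars, the seryl enzyme, which also charges the tRNA on which selenocysteine is made, went the other way. It was at 193 and 190 TPM in wild type against 173 and 177 TPM in Stk40-/-, with replicates within a few TPM of each other in both genotypes. The log2 fold change was -0.13 (SE 0.066, adjusted p = 0.543 by limma), and -0.20 after centring.

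Smaller differences without overlap were seen in 3 other genes named for size. Wars, the tryptophanyl enzyme and the lowest of the cytosolic set, was at 53.9 and 57.5 TPM against 62.7 and 59.4 TPM (log2 fold change 0.13). Farsa, the catalytic subunit of the phenylalanyl enzyme, was at 63.0 and 62.5 against 68.7 and 68.1 TPM (0.12). Aars, the alanyl enzyme, with 2 ATF4 cores in its promoter window, was at 84.3 and 87.9 against 91.9 and 94.8 TPM (0.12). Wars and Aars overlapped between genotypes after centring. The longest Aars transcript shares 1326 identical bases with Exosc6, which is listed at 0 in all 4 libraries, so reads of that gene may be counted under Aars.

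The smallest cytosolic differences were in Farsb, Lars and Iars. Farsb, the other phenylalanyl subunit, was at 117 and 122 TPM against 126 and 125 TPM (log2 fold change 0.07, or -0.000815 after centring). Iars, the isoleucyl enzyme, was at 103 and 110 against 105 and 120 TPM (0.07), and the groups overlapped. A processed pseudogene, Gm4849, is 94.7% identical to Iars over 2251 bases and stood at no more than 0.195 TPM. Of the rest, Kars, Tars and Nars were higher without overlap, with Nars, the asparaginyl enzyme, at 183 and 186 against 196 and 201 TPM (0.11). Rars, Hars, Qars, Dars, Cars and Yars overlapped, with log2 fold changes from 0.09 (Rars) to 0.26 (Yars, at 74.5 and 94.7 against 109 and 93.4 TPM).

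Placement in the multisynthetase complex went with little difference in the cytosolic values. The 8 synthetase genes of the complex, Eprs, Iars, Lars, Mars, Qars, Rars, Kars and Dars, all had positive log2 fold changes, 4 of them without overlap, with a median of 0.10. Across all tested genes 27.5% were higher and 16.6% lower without overlap. The 12 outside it had 11 positive, 8 higher and 1 lower without overlap, and a median of 0.12. By catalytic fold, the 9 class I enzymes had a median of 0.13 with 4 higher, and the 10 class II enzymes 0.099 with 7 higher and 1 lower. Eprs, which holds both folds, was left out of that split. After centring, the genes still higher without overlap were Mars and Eprs in the complex and Gars and Farsa outside it, of which Mars is class I and Gars and Farsa are class II. In the mitochondrial set class I (9 genes) held 3 of the 4 lower genes, Lars2, Wars2 and Yars2, and 1 higher gene. Class II (8 genes) held 3 higher genes and 1 lower, Nars2. The medians were -0.0095 for class I and 0.081 for class II. After centring Tars2, of class II, was lower as well, with 23.9% of all tested genes lower.

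Tarsl2 is a threonyl-tRNA synthetase-like gene whose product resembles the cytosolic enzyme Tars. The gene (ENSMUSG00000030515.9, chr7:65644898-65692091, plus strand) was at 3.81 and 4.91 TPM in wild type against 7.31 and 7.43 TPM in Stk40-/-. Both Stk40-/- values were above both wild-type values, and the ratio of means was 1.69. The log2 fold change was 0.65 (SE 0.22, adjusted p = 0.438 by limma), from 0.50 to 0.80 when each library was left out, and 216 of 3170 protein-coding genes near its level were as high. It shares 923 bases with Tm2d3 on the same strand, a gene at 49.4 to 56.9 TPM, so its own low values depend on how reads there were divided. Tars itself, at 89.7 and 95.0 against 95.6 and 99.6 TPM, and the mitochondrial Tars2, at 55.4 and 47.2 against 43.3 and 48.6 TPM, differed less.

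Setting each cytosolic gene against its mitochondrial partner gave 17 ratios reported here. Among them Eprs has the partners Ears2 and Pars2, and Farsa and Farsb share Fars2. Qars has no partner, because mitochondrial glutamine tRNA is charged with glutamate by Ears2 and then converted. Only the leucine pair stood below 1 in wild type: Lars over Lars2 was 0.552 and 0.471 there, and 1.09 and 0.945 in Stk40-/-. The difference in the log2 ratio was 0.99. For tryptophan, Wars over Wars2 was 8.13 and 9.83 in wild type against 15.1 and 19.0, a log2 difference of 0.92. For tyrosine, Yars over Yars2 was 1.14 and 1.84 against 2.49 and 2.32 (0.73).

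The asparagine, methionine and threonine ratios were also higher without overlap, by 0.48, 0.43 and 0.24 on the log2 scale. The threonine groups were close, with Tars over Tars2 at 1.62 and 2.01 in wild type against 2.21 and 2.05 in Stk40-/-. Methionine had the widest gap between compartments, with Mars 22.9 and 33.0 times Mars2 in wild type and 40.6 and 34.0 times in Stk40-/-. Alanine and serine went the other way, with Aars over Aars2 at 6.26 and 6.72 against 5.75 and 6.06, and Sars over Sars2 at 8.44 and 8.69 against 7.44 and 7.37. The other 9 ratios overlapped between genotypes. No test was made of these ratios, in which the scaling of a library cancels out. The share without overlap among ratios of other gene pairs was not computed, so these counts have no background beside them.

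**Figure D4:**
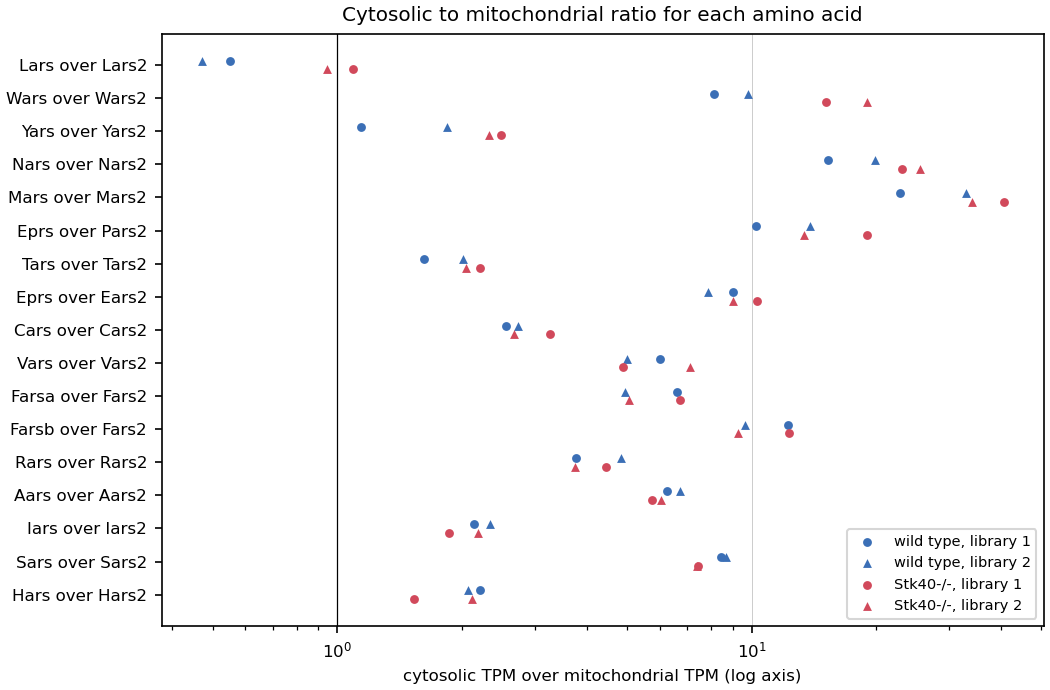
Ratio of cytosolic to mitochondrial TPM for each amino acid pair on a log axis, with 1 point per library in the same colours and shapes as above, ordered by the difference between genotypes. The vertical line marks a ratio of 1, which only Lars over Lars2 reaches, from 0.552 and 0.471 in wild type to 1.09 and 0.945 in Stk40-/-.

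The proteins that work beside the synthetases were examined as lists, and 0 of their genes passed limma, so each list is given by counts and median. The counts without overlap stand against 27.5% higher and 16.6% lower among all tested genes, or 20.1% and 23.9% after centring. The medians stand beside 0.065 for all tested genes, or -0.00072 after centring. Of the 3 scaffold proteins of the multisynthetase complex, Eef1e1 was at 96.5 and 86.9 TPM against 106 and 105 TPM (log2 fold change 0.20). Aimp1 (151 and 130 against 140 and 139 TPM) and Aimp2 (88.1 and 97.3 against 86.0 and 101 TPM) overlapped. The median of the 3 was 0.0063, or -0.060 after centring.

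Among 6 partners of mitochondrial tRNA charging, which amidate glutamine tRNA, add or remove the formyl group of the first methionine, or add the CCA end, 1 was higher and 2 were lower without overlap, or 0 and 2 after centring, with a median of -0.063. Qrsl1, a subunit of the amidotransferase, was at 18.9 and 19.6 against 20.8 and 22.9 TPM, and overlapped after centring. Pdf, the mitochondrial deformylase, was at 20.8 and 21.4 against 18.2 and 20.1 TPM. Trnt1, the CCA-adding enzyme, and Gatb, another amidotransferase subunit, varied widely between the wild-type libraries, with values of 81.0 and 41.6 TPM for Trnt1 and 18.3 and 45.3 TPM for Gatb.

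Of 4 genes that clear mischarged tRNA, 1 was higher and 1 was lower without overlap, with a median of 0.19, or 0.13 after centring. Dtd2, which removes alanine misplaced on threonine tRNA, was at 20.7 and 20.4 TPM in wild type against 29.1 and 27.2 TPM in Stk40-/- (log2 fold change 0.44, SE 0.12, adjusted p = 0.400 by limma). Prorsd1, related to the editing domain of bacterial prolyl enzymes, was at 29.5 and 31.3 against 24.4 and 25.0 TPM (-0.29). Aarsd1 and Dtd1 overlapped, with log2 fold changes of 0.25 and 0.14.

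The selenocysteine pathway starts from serine placed on its tRNA by Sars. Of its 6 genes, 4 were higher without overlap, against 27.5% of all tested genes, or 2 after centring, against 20.1%, and the median was 0.13. Pstk, the kinase that acts on the seryl-tRNA, was at 56.0 and 68.9 TPM in wild type against 86.4 and 81.4 TPM in Stk40-/- (log2 fold change 0.43, adjusted p = 0.420 by limma). Secisbp2, which binds the selenocysteine insertion element, was at 16.5 and 15.3 against 19.7 and 20.4 TPM. Eefsec, the elongation factor of the pathway, and Sephs1 had log2 fold changes of 0.18 and 0.09. Sepsecs, the enzyme that completes selenocysteine on the tRNA and is named here after its values were seen, was at 8.49 and 7.50 against 7.58 and 8.40 TPM.

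Downstream of charging, 4 of 6 cytosolic elongation factor genes were higher without overlap, with a median of 0.083. After centring none was higher and 2 were lower, so these small differences turned on scaling. Eef1a1, which carries charged tRNA to the ribosome, was at 10338 and 10219 TPM in wild type against 10922 and 11216 TPM in Stk40-/- (log2 fold change 0.11). Eef2, Eef1g and Eif5a had log2 fold changes of 0.12, 0.15 and 0.06. Among 9 mitochondrial translation factors 1 was higher and 2 were lower, against 27.5% and 16.6% of all tested genes, with a median of 0.015, or -0.050 after centring. Mtif3, a mitochondrial initiation factor, was at 20.5 and 15.6 against 11.8 and 14.4 TPM (-0.43), and Mtrf1, a release factor, at 7.57 and 3.79 against 9.22 and 7.89 TPM (0.57). Mrrf, the recycling factor, had a log2 fold change of -0.13 without overlap, and Mtif2 overlapped.

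The pathway that senses uncharged tRNA runs from the kinase Eif2ak4 (GCN2) through eIF2 and its exchange factor eIF2B to ATF4. The list examined is wider than this route and also holds the other eIF2 kinases Eif2ak1, Eif2ak2 and Eif2ak3, and Ppp1r15a and Ppp1r15b. Of its 16 genes found and tested, 6 were higher and 3 lower without overlap, against 27.5% and 16.6% of all tested genes. Eif2ak4 itself was at 13.1 and 13.2 TPM in wild type against 13.8 and 15.8 TPM in Stk40-/- (log2 fold change 0.16). After centring 2 were higher and 3 lower, against 20.1% and 23.9%. The median of the list was 0.097. Atf4 itself was at 177 and 188 TPM in wild type against 212 and 196 TPM in Stk40-/- (log2 fold change 0.16, adjusted p = 0.544 by limma). Eif2b3, a subunit of eIF2B, was at 39.8 and 40.1 against 47.5 and 50.4 TPM (0.29), and Eif2s1, the subunit of eIF2 that is phosphorylated, at 127 and 115 against 155 and 138 TPM (0.27). Eif2b5, the catalytic subunit of eIF2B and a gene of chromosome 16, was at 77.1 and 74.8 against 64.8 and 63.4 TPM (-0.24).

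Among 34 known ATF4 target genes outside the synthetase family, 33 were tested, and 11 were higher and 3 lower without overlap, against 27.5% and 16.6% of all tested genes. After centring the counts were 10 and 6, against 20.1% and 23.9%. The median was 0.11 before centring and 0.046 after it. In sign, 21 were positive and 12 negative before centring, against 58.6% and 41.4% of all tested genes. The 3 lower genes were Atf3, Sesn2 and Aldh1l2. The 4 genes with the smallest unadjusted p, which follow, were all higher. Slc7a3, a transporter of cationic amino acids, was at 51.2 and 61.8 TPM in wild type against 90.7 and 85.6 TPM in Stk40-/- (log2 fold change 0.64, SE 0.13, adjusted p = 0.312 by limma). Ddit4, an inhibitor of mTORC1 signalling, was at 231 and 203 against 363 and 300 TPM (0.61), Pycr1, of proline synthesis, at 21.1 and 22.4 against 35.2 and 29.6 TPM (0.55), and Stc2, a secreted glycoprotein, at 9.43 and 6.82 against 11.9 and 14.4 TPM (0.65). Of the list's 9 genes with the core searched above, Pycr1 and Chac1 were higher without overlap, Atf3 was lower, and Asns, Nupr1, Slc1a4, Trib3 and Vldlr overlapped, while Slc7a11 did not reach the level for testing.

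The 5 cytosolic synthetase genes with that core in the window spanned log2 fold changes from 0.07 (Iars) to 0.26 (Yars), with Gars at 0.23, Aars at 0.12 and Tars at 0.08. The 8 cytosolic genes with a promoter but no match spanned a wider range, from -0.13 (Sars) to 0.42 (Mars). The Yars value was 0.092 without the first wild-type library and 0.43 without the second. No test was made of the core against the differences, and 7 of the 20 cytosolic genes had no promoter entry.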

How the data were processed

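The deposited values were TPM per gene, made by the authors and summing to 1000000 in each of 4 libraries, per the file headers and the values. The submitters' processing notes name Salmon 0.8.2, CASAVA 1.7 and the human build hg38, although the IDs are mouse Ensembl IDs, so the annotation behind the table is unclear. Per the labels' protocols, reads were pairs of 100 or 150 bases from different instruments, with no record of which library came from which, so no batch term could be fitted. Salmon divides reads among similar transcripts, and TPM keeps no depth. There were 0 unused per-sample columns.

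The 15739 genes averaging 1 TPM or more were compared by limma 3.58.1 (R 4.3.3) on log2(TPM + 1), with an intensity trend, no replicate block and Benjamini-Hochberg adjustment at 0.05. Fold changes on this scale understate the change of low genes. The procedure was run on simulated data with independent noise and added differences. That checks the code and does not show what could be called in these 4 libraries. Positions came from GENCODE vM21 on GRCm38, where 51633 of 51826 IDs matched, and promoters from RefSeq on GRCm38.p6. Near-identical transcripts were sought with blastn 2.17.0 at 90% identity over at least 500 bases. The synthetase genes and the gene lists were chosen with earlier results of these data known. Genes given in full were the 8 cytosolic and 5 mitochondrial genes with the largest difference without overlap. To these were added the 3 of each set with the smallest difference, the highest and lowest of each set, and Gars, Kars and Tarsl2. From each list came up to 4 genes by unadjusted p. Some other list genes were named after their values were seen. Alternatives were pseudocounts of 0.1 and 0.01, filters above 0 and at 5 TPM, rescaling without mitochondrially encoded and ribosomal protein genes, centring each library on its median over genes of at least 5 TPM, a replicate block, no trend, Gars and Kars left out or Tarsl2 moved, and each library left out. One gene of the mitochondrial set is not reported here by itself or in the figures and enters only the counts, sums and medians.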

Additional observations from a re-analysis of the deposited data

How the results depend on the processing

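No synthetase gene was called by limma under any of the 12 refits, where the lowest adjusted p of any of them was 0.255, and 26 of the 38 kept the sign of their fold change throughout. The cytosolic median of 0.11 was 0.047 after centring and ran from 0.089 to 0.12 with each library left out. The mitochondrial median of 0.00095 had no stable sign: it was 0.074 with a filter at 5 TPM, 0.038 with Tarsl2 counted in, -0.00069 after rescaling, -0.065 after centring, and -0.059 to 0.061 with each library left out. The 22 genes without overlap became 14 after centring and 28 to 32 with 1 library fewer, when 68.5% to 72.4% of all tested genes were separate, against 44% with all 4. Same-numbered libraries had deviations correlated at 0.0893, so the numbers were not taken to pair them. A fit with the replicate block gave 0 calls and the same medians, 0.11 and 0.00095. Signs changed by centring were those of Farsb (-0.00081) and Ears2 (-0.065), and Ears2 also changed after rescaling (-0.00069). With each library left out in turn, 11 genes crossed 0: Cars ran from -0.017 to 0.30, Dars from -0.021 to 0.26, Hars from -0.0089 to 0.19, Iars from -0.020 to 0.16, Rars2 from -0.10 to 0.41, Pars2 from -0.43 to 0.035, Cars2 from -0.19 to 0.16, Ears2 from -0.059 to 0.061, Fars2 from -0.098 to 0.27, Mars2 from -0.13 to 0.11 and Vars2 from -0.17 to 0.32. In none of these genes but Farsb were the groups separate to begin with. The cause of the shift under centring was not tested. Unknown depth limits the low genes, Mars2, Wars2 and Tarsl2, most.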
